A study of Mus musculus with 10 samples.

Results

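Retinal transcripts of mice with oxygen-induced retinopathy (OIR) that received no injection were compared with those of untreated mice of the same age, postnatal day 17. The comparison takes the 2 arrays of uninjected OIR retina and the 2 arrays of untreated day 17 retina, chosen by their titles, from a series of 10 arrays in 5 groups. All animals were C57BL/6JJmsSlc mice, and total RNA came from retina. The OIR animals were kept in 75% oxygen for 5 days from postnatal day 7 and then in room air, and the untreated animals carry no treatment in the labels. Nothing in the labels tells if 2 arrays of 1 group stand for separate mice, and pooled tissue is possible, so the p-values speak only for variation among arrays and some of it may be technical. The other groups are untreated retina of day 7 and OIR retina of day 17 with a vitreous injection of phosphate-buffered saline (PBS) or of ISOX DUAL. They enter the fit through its estimate of the spread, and their levels are given for a few genes.

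OIR is a model of ischaemic retinopathies such as retinopathy of prematurity. High oxygen halts and prunes the growing capillaries of the central retina. On return to air the poorly perfused tissue becomes hypoxic, and new vessels sprout around and above it. Müller glia, which span the retina, react to such injury, and the vascular bed that forms rests on basement membranes of laminin, nidogen and collagen. The hypoxia targets, tip cell genes and reactive glia genes have been the usual readout of the model; here the genes outside those 3 lists are described, in 29 functional families and 15 cell type lists. The families list 798 places for genes, of which 709 held a gene that passed the filter on dim values, and the cell type lists 283, of which 257 did; a gene may stand on several lists, and counts below are over the genes tested. Where leaving out an array moved a list's median by more than 1.5 times or turned its sign, the median without that array follows in brackets.

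Of 23255 genes tested, 115 (0.495%) passed an adjusted p of 0.05, and on all 115 both arrays of one group lay above both arrays of the other. The same array values enter the test, so this separation, where it is given again below for such genes, is no further support. The raised genes numbered 106 (0.456%) and the lowered genes 9 (0.0387%). Of the raised genes, 29 belong to the 3 usual lists and 77 to none of them, and 59 rose at least 2-fold. The lists are selections made with earlier results of these data known, so the 77 may still hold genes of those responses. The median log2 difference of the raised genes was 1.07, against -0.04 over all genes tested, of which 40% had a positive difference. A looser description, genes at least 1.5-fold apart with groups that did not overlap, took in 293 higher genes (1.26%) and 82 lower genes (0.353%); such genes are called apart here, 375 in all (1.61%), and this description carries no test. Without a limit on size, groups did not overlap for 2195 higher genes (9.44%) and 4409 lower genes (19%). The counts of apart genes and of positive differences given for lists below are to be read against these shares and the 40%. By class, 93 protein-coding genes of 15743 rose and 7 fell, 7 long noncoding genes of 2142 rose and 1 fell, and 6 pseudogenes of 3409 rose and 1 fell. None of 1790 small noncoding genes passed the limma threshold.

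**Figure D1:**
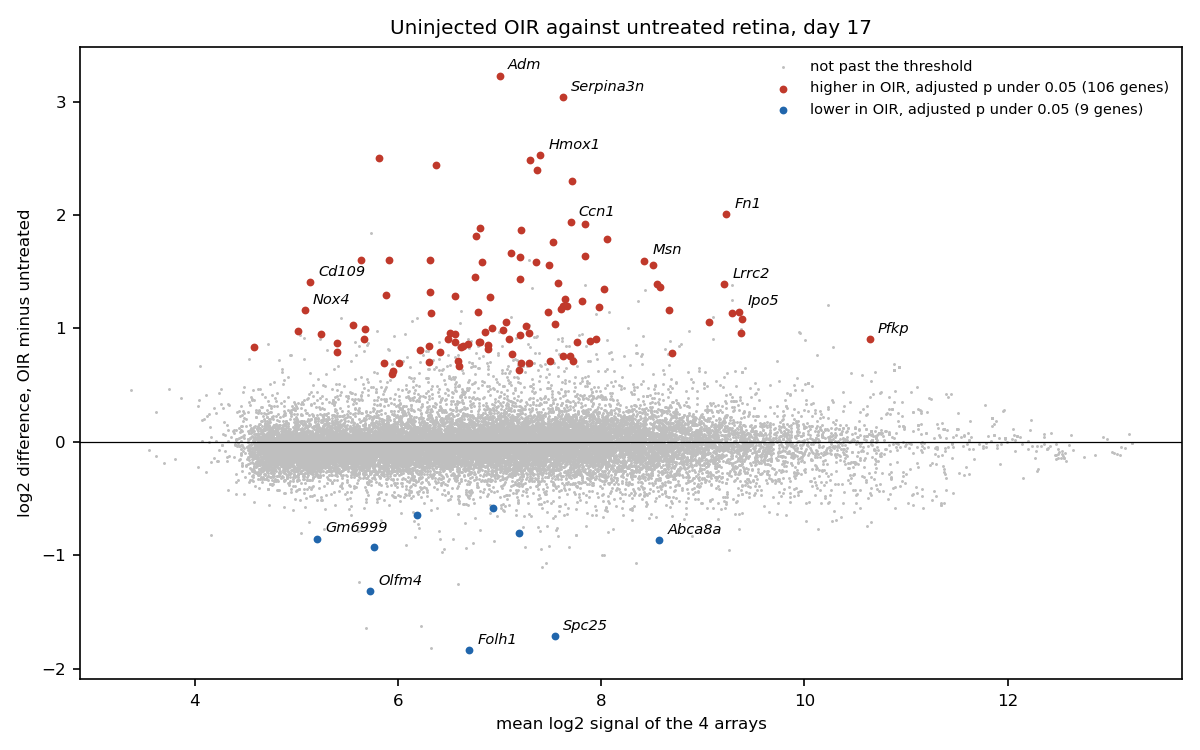
Difference in log2 signal between uninjected OIR and untreated retina (vertical axis) against the mean log2 signal of the 4 arrays (horizontal axis), 1 point per gene tested. Red points are the 106 raised genes and blue points the 9 lowered genes; the raised genes reach 3.23 (Adm) and the lowered genes -1.84 (Folh1).

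The arrays were alike in signal. On these 4 arrays between 8.18% and 9.97% of transcript clusters were brighter than 95% of the negative control probes. Both arrays of a group differed from each other with an SD over genes of 0.33 log2 in OIR and 0.34 in untreated retina. The 68 small nucleolar RNAs tested, of which none passed the limma threshold, had mean log2 levels of 7.36 and 8.33 on the untreated arrays and 7.82 and 8.39 on the OIR arrays, so they separated the first from the second array of each group more than they separated the groups. Array values below are log2 signals, given for untreated arrays 1 and 2 and then OIR arrays 1 and 2, and ± is the standard error of the difference from the limma fit. Where both arrays of the lower group were dimmer than the typical negative control probe (its median, called the background median here), the size of the difference is not exact and no fold is given.

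In the list of glycolysis, glucose and lactate transport, 3 of 28 tested genes rose and none fell: Pfkp, Pfkfb3 and Gys1. Pfkp, the platelet form of phosphofructokinase and thus a gate of glycolysis, read 10.06 and 10.32 in untreated retina and 11.09 and 11.10 in OIR retina, a rise of 0.91 ± 0.13 log2 (1.88-fold, adjusted p = 0.0345). Pfkfb3, which makes the activator of phosphofructokinase, read 6.93 and 7.19 and then 8.19 and 8.32, a rise of 1.20 ± 0.17 (2.29-fold, adjusted p = 0.0345); it is also one of the hypoxia targets. Gys1, the glycogen synthase of tissues other than liver, read 6.81 and 7.00 and then 8.12 and 7.98, a rise of 1.14 ± 0.12 (2.21-fold, adjusted p = 0.0165). Each of these genes was higher on both OIR arrays than on either untreated array. Prkab2, a regulatory subunit of the energy sensor AMPK that binds glycogen, was chosen after its values were seen; it read 7.36 and 7.27 and then 8.21 and 8.18, a rise of 0.88 ± 0.10 (1.84-fold, adjusted p = 0.0192).

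The sequence before the start of these genes is shown because hypoxia acts on many glycolytic genes through a short response core, ACGTG or GCGTG on either strand. The windows hold the 250 bases before the annotated start, 5′ to 3′ on the gene's strand, from RefSeq on GRCm38.p6, and capitals mark the core, with overlapping matches run together. They lie at chr13:6648772-6649021 (minus strand) for Pfkp, chr2:11502091-11502340 (minus strand) for 1 of 2 starts of Pfkfb3, chr3:97657962-97658211 (plus strand) for Prkab2 and chr7:45434589-45434838 (plus strand) for Gys1.
Pfkp: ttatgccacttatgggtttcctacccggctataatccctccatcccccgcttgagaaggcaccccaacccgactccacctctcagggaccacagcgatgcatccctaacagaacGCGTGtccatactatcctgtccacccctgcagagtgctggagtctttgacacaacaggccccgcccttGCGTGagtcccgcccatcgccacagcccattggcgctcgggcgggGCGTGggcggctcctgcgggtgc
Pfkfb3: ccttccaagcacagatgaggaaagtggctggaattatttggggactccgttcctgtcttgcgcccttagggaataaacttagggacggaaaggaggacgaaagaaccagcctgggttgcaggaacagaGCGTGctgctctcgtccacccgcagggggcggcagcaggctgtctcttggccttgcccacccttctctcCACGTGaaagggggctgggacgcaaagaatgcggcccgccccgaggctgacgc
Prkab2: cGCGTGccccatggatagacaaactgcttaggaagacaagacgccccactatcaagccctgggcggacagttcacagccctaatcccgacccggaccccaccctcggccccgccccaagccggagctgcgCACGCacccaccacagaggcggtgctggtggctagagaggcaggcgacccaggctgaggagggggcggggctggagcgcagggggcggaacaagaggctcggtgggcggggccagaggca
Gys1: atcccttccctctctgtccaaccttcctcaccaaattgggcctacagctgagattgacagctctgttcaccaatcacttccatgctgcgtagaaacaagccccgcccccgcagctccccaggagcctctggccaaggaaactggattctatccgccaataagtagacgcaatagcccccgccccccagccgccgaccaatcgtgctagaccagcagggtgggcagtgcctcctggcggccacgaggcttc
The window of Pfkp holds 3 cores, that of Pfkfb3 holds 3, that of Prkab2 holds 2 and that of Gys1 holds 0. The core is common: 48.7% of the 17968 promoters of tested genes hold it, and 52 of 89 promoters of raised genes (58.4%) and 2 of 9 promoters of lowered genes (22.2%) did. These promoters belong to 77 raised and 7 lowered genes, and 14398 of the 23255 genes tested matched a promoter. A match is a run of letters and not a measured binding site.

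In the same list 9 genes were apart and higher, and 23 of 28 had a positive difference, with a median of 0.42 (0.21 without untreated array 1, 0.26 without OIR array 1) against -0.04 over all genes tested. Of these 28 genes, 7 are also among the hypoxia targets. Named after their values were seen and not past the threshold, Slc16a3, a lactate exporter, differed by 0.91 ± 0.18 (adjusted p = 0.128) and Slc2a3, a glucose transporter, by 0.84 ± 0.22 (adjusted p = 0.291). The pyruvate and lactate transporter gene Slc16a7 (-0.47 ± 0.15) and Ldhb, the lactate dehydrogenase subunit of oxidative tissues (-0.38 ± 0.16), differed in the other direction; they also missed it and were also chosen after their values were seen. None of 28 respiratory chain subunits passed the threshold, and none had a positive difference: their median was -0.20. Cyc1, of complex III, read 8.12 and 8.44 and then 7.95 and 7.94 (adjusted p = 0.859), and Ndufa2, of complex I, read 8.00 and 8.43 and then 7.94 and 7.82 (adjusted p = 0.931). The mean of the subunits was 8.28 and 8.50 on the untreated arrays and 8.31 and 8.03 on the OIR arrays, so the groups overlapped, and the list's median reached -0.05 when untreated array 2 was left out, -0.33 when untreated array 1 was and -0.06 when OIR array 2 was.

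Of 32 glycoproteins of the extracellular matrix and basement membrane, 7 rose and none fell. Fn1, fibronectin, the provisional matrix protein that integrins bind, was the most strongly raised of them: it read 8.21 and 8.23 in untreated retina and 10.23 and 10.24 in OIR retina, a rise of 2.01 ± 0.15 (4.02-fold, adjusted p = 0.00526). Nid1, nidogen 1, which joins laminin to type IV collagen, read 6.97 and 6.78 and then 8.28 and 8.26 (1.40 ± 0.17, 2.64-fold, adjusted p = 0.0261). Lama4, the laminin chain of vascular basement membranes, read 6.37 and 6.17 and then 7.56 and 7.53 (1.27 ± 0.18, 2.42-fold, adjusted p = 0.0323). In all of these the OIR arrays were close to each other and more than 1 log2 above the untreated mean. Thbs1, thrombospondin 1, a matrix protein known to restrain vessel growth, also rose, from 6.95 and 7.10 to 8.12 and 8.33 (1.20 ± 0.16, adjusted p = 0.0291). Smaller rises were those of Tgfbi (0.81 ± 0.12), a matrix protein induced by TGF-beta, of the laminin chain gene Lamb1 (0.78 ± 0.12) and of Nid2, nidogen 2 (0.67 ± 0.08), with adjusted p of 0.0383, 0.0383 and 0.0241. Lamb1 and Nid2 are also on the tip cell list. The laminin partner gene Lamc1 (0.77 ± 0.14, adjusted p = 0.083) and the basement membrane proteoglycan gene Hspg2 (0.72 ± 0.14, adjusted p = 0.0991) missed the threshold, and were named after their values were seen. Over the list, 11 genes were apart and higher, 23 had a positive difference, and the median was 0.25.

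A protease that trims procollagen and its enhancer both rose. Bmp1, the procollagen C-proteinase, read 6.88 and 7.02 and then 7.71 and 7.57, a rise of 0.69 ± 0.09 (1.62-fold, adjusted p = 0.0318). Pcolce, the protein that enhances that proteinase, read 6.38 and 6.59 and then 8.01 and 7.84, a rise of 1.44 ± 0.13 (2.71-fold, adjusted p = 0.0094). They were the 2 raised genes among 25 collagens and collagen-modifying enzymes, of which 7 were apart and higher, 22 had a positive difference and none fell, with a median of 0.18 (0.08 without untreated array 1). No collagen chain passed the threshold: Col4a1 differed by 0.72 ± 0.21 (adjusted p = 0.404) and Col4a2 by 0.61 ± 0.20 (adjusted p = 0.539). Both read higher on each OIR array than on either untreated array, as did 9.44% of all genes tested. Plod2, a collagen lysine hydroxylase (0.93 ± 0.18, adjusted p = 0.0991), and P4ha2, a collagen proline hydroxylase (0.76 ± 0.13, adjusted p = 0.0776), missed it as well. Tram2, linked to collagen folding at the endoplasmic reticulum, read 5.68 and 5.64 and then 6.37 and 6.33 (adjusted p = 0.0345). The genes of this paragraph other than Bmp1 and Pcolce were named after their values were seen.

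Among proteoglycans and genes of hyaluronan, 1 of 21 rose: Cd44, the hyaluronan receptor, which is on the reactive glia list, read 6.58 and 6.27 and then 7.59 and 7.27 (1.00 ± 0.14, adjusted p = 0.0324). The median of that list was 0.01 (-0.03 without untreated array 1, -0.02 without OIR array 2, 0.05 without untreated array 2, 0.08 without OIR array 1). Itih5, whose product belongs to the inter-alpha-trypsin inhibitor heavy chains that bind hyaluronan, read 5.77 and 6.06 and then 7.03 and 7.37 (1.29 ± 0.16, adjusted p = 0.0261). Mgp, matrix Gla protein, which inhibits calcification and binds bone morphogenetic proteins, read 6.58 and 6.55 and then 8.33 and 7.97, a rise of 1.59 ± 0.13 (3-fold, adjusted p = 0.00572). Of 22 matrix proteases and inhibitors, 4 rose, 6 were apart and higher and none fell, with a median of 0.16. Beside Serpina3n and A2m, which are reactive glia genes, these were Plat, the tissue plasminogen activator, and Adamts9, a metalloprotease that cleaves proteoglycans. Plat read 6.92 and 7.13 and then 8.20 and 7.92 (1.03 ± 0.13, 2.05-fold, adjusted p = 0.0241), and Adamts9 read 5.65 and 5.63 and then 6.22 and 6.26 (adjusted p = 0.0304). The OIR arrays lay above the untreated arrays in both.

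**Figure D2:**
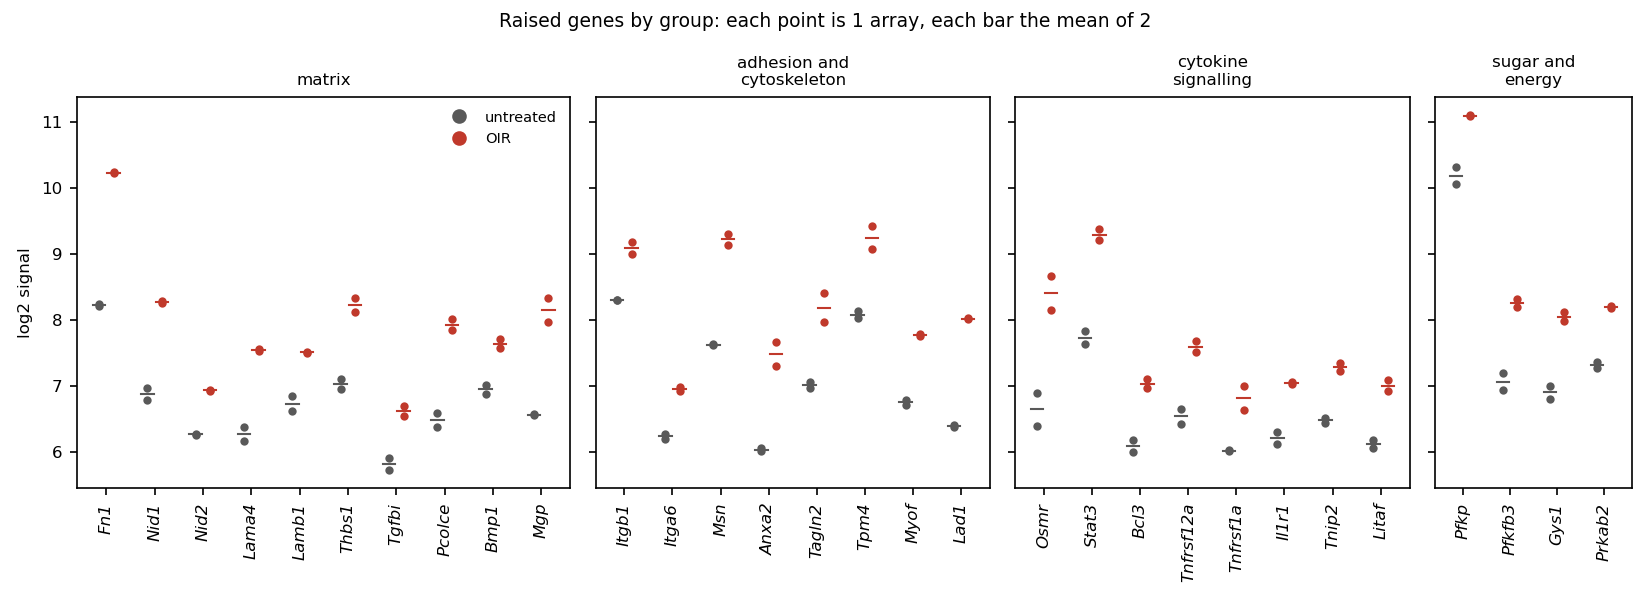
Log2 signal (vertical axis) of 30 raised genes in 4 groups of function; each point is 1 array, grey for untreated and red for OIR, and each bar is the mean of 2 arrays. In every gene shown both red points lie above both grey points; Fn1 moved from 8.22 to 10.23 in the mean.

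Ccn1 and Wwtr1 were the raised genes among 21 genes of the CCN family and targets of YAP and TEAD, a pathway that reads cell shape and stiffness. Ccn1, a secreted matrix protein bound by integrins, read 6.71 and 6.75 and then 9.02 and 8.32, a rise of 1.94 ± 0.23 (3.83-fold, adjusted p = 0.0212). Wwtr1, which encodes the TEAD coactivator TAZ, read 7.11 and 7.17 and then 7.86 and 7.84, a rise of 0.71 ± 0.09 (1.64-fold, adjusted p = 0.0261). The OIR arrays of Ccn1 lay further apart than its untreated arrays, and both were above them. No other member was apart, 15 of 21 had a positive difference, and the median was 0.15 (0.04 without untreated array 1, 0.05 without OIR array 2, 0.29 without untreated array 2). The windows before both starts are shown because each holds the TEAD core, GGAATG on either strand, marked in capitals: chr3:145649986-145650235 (minus strand) for Ccn1 and chr3:57575877-57576126 (minus strand) for 1 of 2 starts of Wwtr1.
Ccn1: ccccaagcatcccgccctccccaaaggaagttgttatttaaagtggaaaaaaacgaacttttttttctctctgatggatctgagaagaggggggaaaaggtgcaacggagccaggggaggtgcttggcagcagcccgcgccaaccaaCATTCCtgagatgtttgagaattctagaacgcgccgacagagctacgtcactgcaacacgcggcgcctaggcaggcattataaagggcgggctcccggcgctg
Wwtr1: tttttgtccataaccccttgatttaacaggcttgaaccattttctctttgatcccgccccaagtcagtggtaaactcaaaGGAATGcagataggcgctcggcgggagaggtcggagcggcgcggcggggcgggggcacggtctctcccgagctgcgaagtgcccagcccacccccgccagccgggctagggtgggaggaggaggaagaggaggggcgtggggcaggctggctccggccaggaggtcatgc
The core occurred in 11.3% of the promoters of tested genes and in 11 of 89 promoters of raised genes (12.4%). Other short motifs were also about as frequent before raised genes as before all tested genes. The STAT motif TTCNNNGAA was in 4.49% of promoters of raised genes against 6.11% of all, the AP-1 motif TGANTCA in 4.49% against 5.16%, and the antioxidant response motif TGACNNNGC in 10.1% against 11.4%. The NF-kappa-B motif was in 1.12% against 1.42%, and the CArG box in 0 against 1.31%. All were read on both strands of the same windows.

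Of 25 integrin and focal adhesion genes 2 rose, the integrin chains Itgb1 and Itga6. Itgb1, the beta chain shared by the laminin, collagen and fibronectin receptors, read 8.30 and 8.31 and then 9.18 and 8.99 (0.78 ± 0.10, 1.72-fold, adjusted p = 0.0241). Itga6, the alpha chain that pairs with it on laminin, read 6.27 and 6.19 and then 6.92 and 6.97 (0.71 ± 0.10, 1.64-fold, adjusted p = 0.0322). Both OIR arrays were above both untreated arrays for each chain. In that list 7 genes were apart and higher, 23 had a positive difference and none fell, with a median of 0.34. Antxr2, a cell surface protein that binds laminin and type IV collagen and is a receptor of anthrax toxin, read 7.17 and 6.86 and then 8.66 and 8.65, a rise of 1.64 ± 0.22 (3.12-fold, adjusted p = 0.0291). Adgrg6, an adhesion receptor coupled to G proteins that binds type IV collagen, read 5.59 and 5.44 and then 7.09 and 7.14 (log2 difference 1.60 ± 0.12, adjusted p = 0.00526). Its relative Adgrf5 read 7.06 and 6.96 and then 8.24 and 8.31 (1.26 ± 0.16, adjusted p = 0.0279). Lad1, ladinin, a protein of epithelial basement membrane anchors, read 6.37 and 6.40 and then 8.01 and 8.02, a rise of 1.63 ± 0.14 (3.09-fold, adjusted p = 0.00905).

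Of 28 genes of intermediate filaments and the actin cytoskeleton, 5 rose and none fell. Msn, moesin, which links actin filaments to membrane proteins, read 7.63 and 7.62 and then 9.31 and 9.13, a rise of 1.60 ± 0.14 (3.03-fold, adjusted p = 0.00905). Anxa2, annexin A2, which binds membranes and the plasminogen activator Plat, read 6.01 and 6.05 and then 7.67 and 7.29 (1.45 ± 0.15, 2.73-fold, adjusted p = 0.0162). Tagln2, transgelin 2, an actin-binding protein, read 7.05 and 6.97 and then 8.40 and 7.97 (1.17 ± 0.16, adjusted p = 0.0291), and Tpm4, a tropomyosin, read 8.14 and 8.03 and then 9.42 and 9.07 (1.16 ± 0.17, adjusted p = 0.0376). The OIR arrays were the higher pair in each. The fifth was Nes, nestin, an intermediate filament protein and a reactive glia gene. In the list 10 genes were apart and higher and 23 had a positive difference, with a median of 0.34. The next 3 genes were chosen after their values were seen. Myof, a dysferlin relative of membrane repair, read 6.78 and 6.72 and then 7.75 and 7.78 (adjusted p = 0.0141). It rose, as did Clic4, an intracellular chloride channel protein of the actin cortex, from 6.60 and 6.87 to 7.62 and 7.73 (adjusted p = 0.038), and Lcp1, the actin bundler of leukocytes, from 5.93 and 5.84 to 6.79 and 6.67 (adjusted p = 0.0338).

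Of 24 genes of LIF, gp130 and JAK-STAT signalling 3 rose and none fell, all of them also reactive glia genes. Osmr, the oncostatin M receptor, read 6.89 and 6.40 and then 8.67 and 8.15 (3.4-fold, adjusted p = 0.0275), and its transcription factor Stat3 read 7.63 and 7.83 and then 9.21 and 9.38 (2.95-fold, adjusted p = 0.0129). The other one was Bcl3, an NF-kappa-B cofactor (0.95 ± 0.13, adjusted p = 0.0322). The median of the list was 0.12 (0.01 without untreated array 1, 0.07 without OIR array 2). Il6st, the gp130 chain, read 8.89 and 8.98 and then 9.55 and 9.53 and missed the threshold (adjusted p = 0.103), and was named after its values were seen. Among 24 cytokines, chemokines and adhesion genes, 2 receptors rose and no gene fell, with a median of 0.04 (0.05 without untreated array 1, 0.08 without OIR array 1, 0.11 without OIR array 2, 0.14 without untreated array 2). Tnfrsf1a, the main receptor of tumour necrosis factor, read 6.01 and 6.02 and then 6.99 and 6.63 (0.79 ± 0.12, 1.73-fold, adjusted p = 0.0493). Tnfrsf12a, the receptor of the cytokine TWEAK and a reactive glia gene, read 6.42 and 6.65 and then 7.51 and 7.68 (1.06 ± 0.13, adjusted p = 0.0261). Both receptors were higher on each OIR array than on either untreated array. The alarmin gene Il33, chosen after its values were seen, differed in the other direction, from 8.14 and 8.19 to 7.56 and 7.12 (adjusted p = 0.228). Of those 24 genes, 10 lay below the background median in both groups.

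A few genes of the same pathways outside the lists also rose, and they were named after their values were seen. Il1r1, the interleukin 1 receptor, read 6.30 and 6.11 and then 7.05 and 7.03 (1.78-fold, adjusted p = 0.0322). Tnip2, which restrains NF-kappa-B, read 6.44 and 6.51 and then 7.23 and 7.35 (1.76-fold, adjusted p = 0.0322), and Litaf, a lysosomal regulator of cytokine genes, read 6.06 and 6.18 and then 7.08 and 6.92 (1.84-fold, adjusted p = 0.0261). In each, the OIR values were above the untreated values. No gene of the interferon response passed the limma threshold among 25 tested; the smallest p-values were those of H2-K1, a class I histocompatibility chain (0.58 ± 0.12, adjusted p = 0.141), Irf9 (0.55 ± 0.11, adjusted p = 0.141), the partner of the STAT proteins in that response, and H2-D1 (0.48 ± 0.12, adjusted p = 0.268). Its median was 0.07 (0.005 without OIR array 1, 0.01 without untreated array 1, 0.18 without OIR array 2). Plat was the single raised gene of 23 complement and coagulation genes, of which 5 were apart and higher, with a median of 0.28 (0.13 without OIR array 1, 0.19 without untreated array 2). Of those 23 genes, 10 lay below the background median in both groups, as did 8 of the 25 interferon response genes.

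Single members of the stress response lists rose. Hmox1, haem oxygenase 1, which breaks haem down into iron, carbon monoxide and biliverdin, read 6.09 and 6.18 and then 8.41 and 8.92, a rise of 2.53 ± 0.26 (5.77-fold, adjusted p = 0.0141). It was the only one of 29 antioxidant, haem and metallothionein genes past the threshold, and the list's median was -0.004, with 14 positive differences (-0.09 without OIR array 1, 0.14 without OIR array 2, 0.007 without untreated array 1, 0.002 without untreated array 2). Mt2, a metallothionein named after its values were seen, spread widely, at 10.02 and 9.23 in untreated retina and 11.83 and 9.84 in OIR retina, and its groups overlapped. Slc25a37, mitoferrin 1, which carries iron into mitochondria, read 7.37 and 7.33 and then 8.66 and 8.74 (1.35 ± 0.19, 2.55-fold, adjusted p = 0.0318). Atf3, a transcription factor induced by many stresses, was the raised gene of 26 in the unfolded protein and integrated stress response, with 6.26 and 6.47 and then 7.18 and 7.31 (0.88 ± 0.13, adjusted p = 0.0345). It is also the raised member of 29 immediate-early genes, of which 26 had a positive difference and 8 were apart and higher, with a median of 0.37 (0.23 without untreated array 1). Bag3, a cochaperone of selective autophagy, was the raised gene of 13 heat shock proteins and chaperones, with 6.31 and 6.19 and then 7.17 and 7.07 (0.86 ± 0.12, adjusted p = 0.0318); 4 of the 13 had a positive difference, with a median of -0.06 (-0.16 without OIR array 1, 0.03 without OIR array 2). Over 22 cell death and p53 targets none passed the limma threshold. Gadd45b (1.36 ± 0.23, adjusted p = 0.0648) and Cdkn1a (1.13 ± 0.30, adjusted p = 0.339), which brake the cell cycle after damage, and Bcl2l11 (0.37 ± 0.12, adjusted p = 0.497), which promotes cell death, had its smallest p-values.

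Growth factor families gave few raised genes. Igfbp5, which binds insulin-like growth factors, read 7.50 and 7.39 and then 8.22 and 8.45 (0.89 ± 0.12, 1.85-fold, adjusted p = 0.0306), and Deptor, an inhibitor of the mTOR kinase, fell from 7.28 and 7.17 to 6.71 and 6.58 (-0.58 ± 0.09, adjusted p = 0.0435); they were the genes past the threshold of 15 in the insulin-like growth factor system. Igfbp3, also a hypoxia target, just missed it (1.15 ± 0.18, adjusted p = 0.0508) and was named after its values were seen. Fgf2, basic fibroblast growth factor and a reactive glia gene, was the raised gene of 27 in the FGF, EGF and PDGF list, with 6.99 and 6.77 and then 8.77 and 8.83 (3.78-fold, adjusted p = 0.0318). None of 32 TGF-beta and BMP genes passed the limma threshold, nor any of 34 axon guidance and Notch genes or of 27 Norrin and Wnt genes. The smallest p-values of these lists belonged to the endothelial TGF-beta coreceptor Eng (0.84 ± 0.16, adjusted p = 0.116), the semaphorin receptor Plxnd1 (0.91 ± 0.16, adjusted p = 0.0702) and the Norrin receptor Fzd4 (0.25 ± 0.12, adjusted p = 0.898). Medians were 0.07 for TGF-beta and BMP (0.04 without untreated array 1) and 0.11 for guidance and Notch (0.06 without untreated array 1, 0.16 without OIR array 1, 0.20 without untreated array 2). For Norrin and Wnt the median was -0.02 (0.01 without OIR array 1, 0.02 without untreated array 2, -0.06 without OIR array 2, -0.08 without untreated array 1).

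Of 29 cell cycle genes 1 rose and 1 fell. Ccnd2, cyclin D2, read 6.34 and 6.10 and then 7.03 and 7.10 (0.84 ± 0.12, 1.79-fold, adjusted p = 0.033), while Spc25, a kinetochore subunit that is also on the Müller glia list, fell. In the list 23 genes had a positive difference, with a median of 0.16 (0.30 without OIR array 2), and 10 of the 29 lay below the background median in both groups. The proliferation marker Mki67, named after its values were seen, read 5.14 and 4.49 and then 6.77 and 6.54 (log2 difference 1.84 ± 0.30, adjusted p = 0.057) and missed the threshold. Its untreated values lay below the background median, so the size of the difference is not exact. The day 7 arrays held more of Mki67, with a mean of 9.14. Top2a, the topoisomerase of dividing cells, also chosen after its values were seen and not past the threshold, read 4.55 and 4.57 and then 5.54 and 5.46 (adjusted p = 0.497), with a mean of 7.58 at day 7. Its untreated and OIR values of day 17 all lay below the background median.

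Further raised genes belong to no family list. Nox4, chosen after its values were seen, is a subunit of an NADPH oxidase that makes hydrogen peroxide. It read 4.55 and 4.45 and then 5.76 and 5.57 (adjusted p = 0.0166), below the background median on all 4 arrays. Cd109, a surface protein that binds TGF-beta, read 4.52 and 4.33 and then 6.09 and 5.58 (adjusted p = 0.0291). It lay below the background median on every array but OIR array 1. Slc14a1, a urea transporter, read 7.86 and 7.93 and then 9.49 and 9.03 (1.37 ± 0.18, 2.58-fold, adjusted p = 0.0281). For these genes both OIR arrays lay above both untreated arrays. Hsd17b2, an enzyme that inactivates oestradiol and testosterone, read 6.32 and 6.25 and then 8.20 and 7.70 (1.67 ± 0.17, 3.18-fold, adjusted p = 0.0141). Lrrc2, a leucine-rich repeat protein, read 8.57 and 8.46 and then 10.02 and 9.79 (1.39 ± 0.18, 2.62-fold, adjusted p = 0.0261). Rfx2, a transcription factor of cilia genes, read 7.15 and 7.23 and then 8.59 and 8.26 (1.24 ± 0.15, adjusted p = 0.0239), and Spidr, a scaffold of homologous recombination, read 6.11 and 5.96 and then 7.72 and 7.52 (1.58 ± 0.12, adjusted p = 0.00526). In the last, the OIR arrays stood more than 1 log2 above the untreated arrays.

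More receptors and carriers rose, named here after their values were seen. Kit, the receptor of stem cell factor, read 6.42 and 6.29 and then 7.19 and 7.28 (1.84-fold, adjusted p = 0.0186). Ipo5, an importin that carries proteins into the nucleus, read 8.68 and 8.88 and then 9.98 and 9.88 (2.22-fold, adjusted p = 0.00973). Apold1, an early response gene of endothelial cells, read 5.72 and 5.80 and then 7.14 and 6.64 (adjusted p = 0.0407). The OIR arrays were above the untreated ones in all of them. Ptgfr, the prostaglandin F receptor, read 4.94 and 4.99 and then 5.83 and 5.84 (adjusted p = 0.0325), below the background median on every array. Dusp16, a phosphatase of stress kinases, read 7.25 and 7.24 and then 7.94 and 8.06 (1.69-fold, adjusted p = 0.0234). Chl1, a neural adhesion protein, read 6.57 and 6.35 and then 7.39 and 7.24 (1.81-fold, adjusted p = 0.042).

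Noncoding genes rose as well. Fgf2os, a transcript annotated antisense to Fgf2, read 4.46 and 4.68 and then 7.11 and 7.02 (log2 difference 2.50 ± 0.34, adjusted p = 0.0318); whether its probes and those of Fgf2 overlap was not tested. Gm15983 read 7.43 and 6.91 and then 9.00 and 8.90 (1.78 ± 0.27, 3.44-fold, adjusted p = 0.0394), and 9330188P03Rik read 4.88 and 4.78 and then 6.67 and 6.20 (1.60 ± 0.16, adjusted p = 0.0135). Each was higher on both OIR arrays. They have the largest fitted differences of the 7 raised long noncoding genes, and those of Fgf2os and 9330188P03Rik are not exact sizes. Among pseudogenes, Gm2399 rose the most, from 7.70 and 8.00 to 9.16 and 9.33 (adjusted p = 0.0365), and whether its probes also pick up a related gene was not tested. Gm16531 (0.98 ± 0.15, adjusted p = 0.0407) and Gm10144 (0.96 ± 0.11, adjusted p = 0.0186) came next.

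Of the 9 lowered genes, Folh1, an enzyme that cleaves glutamate from the neuropeptide NAAG and from folates, fell the most: it read 7.44 and 7.79 in untreated retina and 6.14 and 5.42 in OIR retina (-1.84 ± 0.25, 3.58-fold lower, adjusted p = 0.0306). Spc25 read 8.52 and 8.28 and then 6.87 and 6.50 (-1.71 ± 0.14, 3.28-fold lower, adjusted p = 0.00572). Olfm4, olfactomedin 4, a secreted glycoprotein, read 6.28 and 6.48 and then 5.17 and 4.96 (log2 difference -1.32 ± 0.13, adjusted p = 0.0129). In each of these both OIR arrays lay below both untreated arrays, by more than 1 log2. Abca8a, a lipid transporter of the ABC family, fell from 9.07 and 8.93 to 8.23 and 8.04 (-0.87 ± 0.12, 1.83-fold, adjusted p = 0.0338). Cdcp3 fell from 7.45 and 7.74 to 6.76 and 6.83 (-0.80 ± 0.12, adjusted p = 0.0345), and Mob3b, a MOB kinase activator, fell from 6.51 and 6.50 to 5.87 and 5.86 (-0.65 ± 0.10, adjusted p = 0.0383). With Deptor, the pseudogene Gm20026 (-0.92 ± 0.10, adjusted p = 0.0165) and the long noncoding gene Gm6999 (-0.85 ± 0.13, adjusted p = 0.0435) complete the set. Olfm4, Mob3b, Gm20026 and Gm6999 lay below the background median on both OIR arrays.

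The levels of the lowered genes at day 7 stand on the same scale. Mean log2 levels at day 7, in untreated day 17 and in OIR day 17 retina were 3.87, 7.62 and 5.78 for Folh1. They were 6.83, 8.40 and 6.69 for Spc25 and 4.69, 6.38 and 5.06 for Olfm4. For Abca8a they were 4.94, 9.00 and 8.13. Each of the 9 genes was lower at day 7 than in untreated retina of day 17 in the mean, and the OIR level lay between them for 7 of the 9. The comparisons with OIR and with day 7 share the untreated day 17 arrays, so the directions are not independent. The genes were also picked for being higher in untreated day 17 than in OIR retina, which favours both counts. The shares of all genes tested with these orders were not counted, so no excess can be read from the 9 genes.

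**Figure D3:**
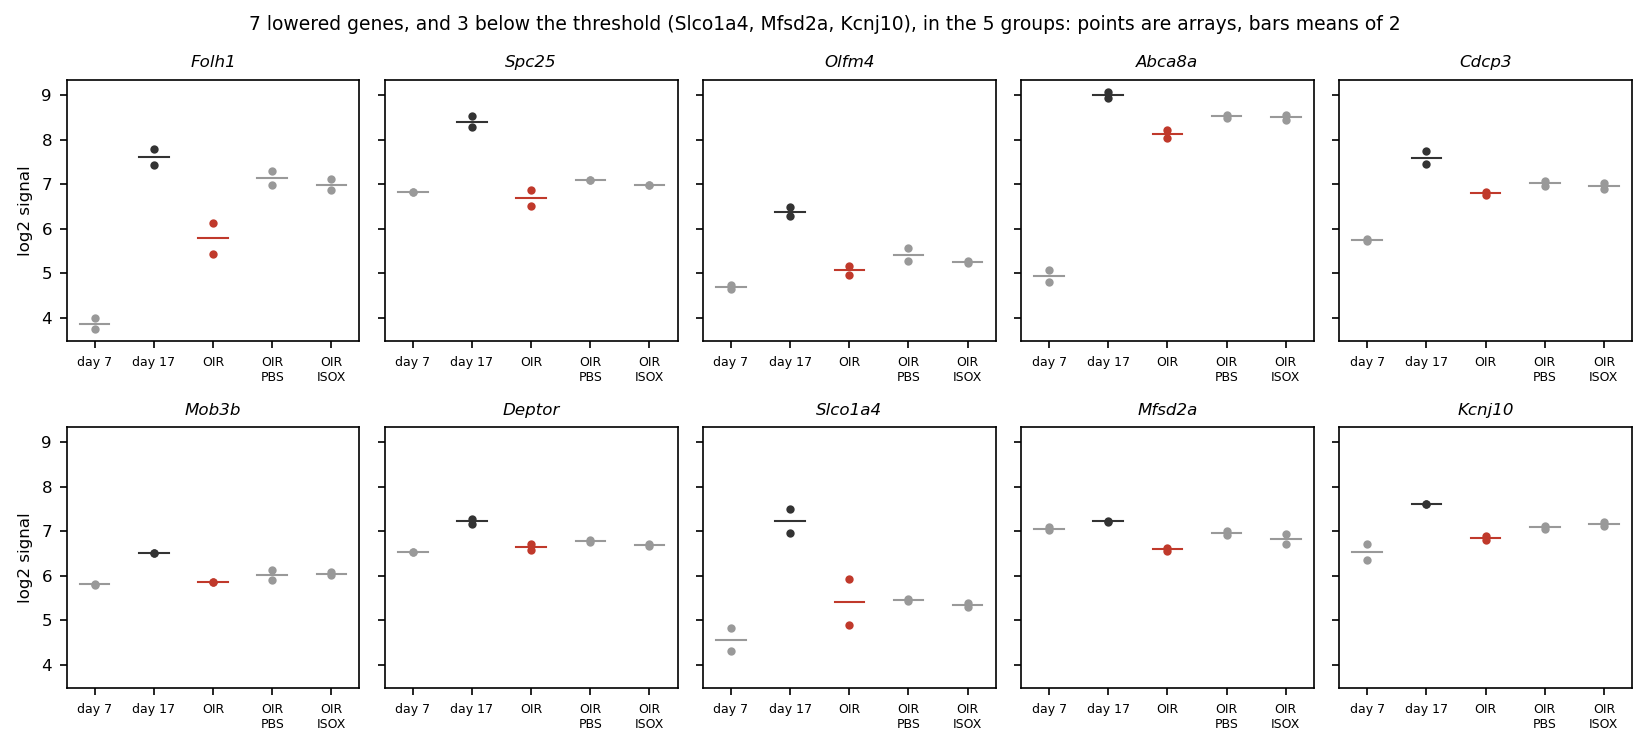
Log2 signal (vertical axis) in untreated retina of day 7 and day 17, uninjected OIR, and OIR injected with PBS or ISOX DUAL (horizontal axis) for 7 lowered genes and for Slco1a4, Mfsd2a and Kcnj10, which missed the threshold. Each point is 1 array and each bar the mean of 2; untreated day 17 (black) has the highest mean in every gene, and uninjected OIR is red.

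Of 19 homeostatic Müller glia markers 2 fell and 1 rose: Spc25 and Abca8a fell and Sox9, a glial transcription factor also on the reactive glia list, rose from 7.43 and 7.56 to 8.37 and 8.44 (0.91 ± 0.11, adjusted p = 0.0234). By the looser description 6 markers were apart and lower and 3 apart and higher, against 0.353% and 1.26% of all genes tested. Of the 19 differences 5 were positive, against 40% of all genes tested. The median was -0.27 (-0.52 without untreated array 1, -0.50 without OIR array 1, -0.12 without either of the others). The potassium channel gene Kcnj10, through which Müller cells clear potassium, read 7.61 and 7.61 and then 6.90 and 6.81 (-0.75 ± 0.12, adjusted p = 0.056), and the water channel gene Aqp4 read 7.59 and 7.68 and then 7.04 and 6.92 (-0.65 ± 0.12, adjusted p = 0.0891). Both missed the threshold, and their groups did not overlap, which held in the lower direction for 19% of all genes tested. They and Kcnc2 (-0.60 ± 0.14, adjusted p = 0.207), a channel of fast-spiking neurons, had the smallest p-values of 20 channel genes, none of which passed the limma threshold. In whole retina, fewer cells of a type and less RNA per cell cannot be told apart.

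No gene of the endothelial list passed the limma threshold, of 23 tested. Slco1a4, a transporter of organic anions at the blood-brain and blood-retinal barriers, read 7.51 and 6.96 and then 5.93 and 4.90 (-1.82 ± 0.33, adjusted p = 0.0897). Mfsd2a, the lysolipid transporter of barrier endothelium, read 7.22 and 7.23 and then 6.63 and 6.55 (-0.63 ± 0.10, adjusted p = 0.057). Eng read 7.30 and 7.15 and then 8.17 and 7.97. In this list 3 genes were apart and higher, 2 apart and lower and 17 positive, with a median of 0.18. Named after its values were seen, the thyroxine transporter gene Slco1c1 read 6.36 and 6.10 and then 5.35 and 4.64 (-1.24 ± 0.24, adjusted p = 0.117). On the raised side, Cd93, a surface protein of sprouting endothelium, read 6.78 and 6.20 and then 8.15 and 8.04 (1.60 ± 0.26, adjusted p = 0.056), and Adgrl4, an endothelial adhesion receptor, read 7.98 and 7.53 and then 9.18 and 9.02 (1.34 ± 0.21, adjusted p = 0.0508); neither passed, and both were chosen after their values were seen. The raised marker of 17 pericyte and smooth muscle genes was the hypoxia target Ndufa4l2; 7 were apart and higher and 14 positive, with a median of 0.17. Named after their values were seen, Acta2, smooth muscle actin, spread from 6.85 and 6.43 to 9.05 and 7.75 (adjusted p = 0.204) and Rgs5, a pericyte marker, read 9.68 and 9.28 and then 10.53 and 10.35 (adjusted p = 0.0759). Of 11 astrocyte genes Gfap alone rose.

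No microglia or macrophage marker passed the limma threshold among 20 tested. Mrc1, the mannose receptor, read 4.89 and 4.66 and then 5.97 and 5.39 (adjusted p = 0.15), Cd68, a lysosomal protein of phagocytes, read 6.52 and 6.32 and then 7.40 and 6.79 (adjusted p = 0.504), and Lyz2, a lysozyme, read 5.65 and 5.63 and then 6.27 and 5.95 (adjusted p = 0.397). The first OIR array held more of all 3 than the second. Of the 20 markers, 17 had a positive difference and the median was 0.28, which was 0.13 without OIR array 1 and 0.41 without OIR array 2. Their mean level was 5.92 and 5.88 on the untreated arrays and 6.37 and 5.98 on the OIR arrays. The part of these cells in the raised matrix, cytokine receptor and leukocyte actin genes was not tested.

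Of 21 glutamate, GABA and glycine receptor genes none passed the limma threshold, 2 had a positive difference and 4 were apart and lower, with a median of -0.36 and a range over left-out arrays of -0.40 to -0.28. The smallest p-values were those of the GABA receptor subunits Gabrb1 (7.31 and 7.06 and then 6.43 and 6.39, adjusted p = 0.125), Gabrb2 (-0.47 ± 0.13, adjusted p = 0.364) and Gabrr2, the subunit of bipolar cell terminals (-0.52 ± 0.16, adjusted p = 0.445). Medians were -0.28 over 20 ganglion cell markers, -0.23 over 20 bipolar cell markers (-0.36 without untreated array 1), -0.13 over 22 amacrine cell markers (-0.04 without OIR array 2, -0.21 without OIR array 1) and -0.08 over 10 horizontal cell markers (-0.14 without untreated array 2), with no gene past the limma threshold in any of them. Over 24 rod markers the median was -0.06 (0.01 without untreated array 2, -0.02 without OIR array 2, -0.11 without OIR array 1, -0.20 without untreated array 1), and over 17 cone markers it was -0.09 (0.08 without OIR array 2, -0.05 without untreated array 1). Among rod genes, of which 9 had a positive difference, the guanylate cyclase activator Guca1a had the smallest p (-0.96 ± 0.31, adjusted p = 0.534). Rp1 came next, in the other direction (0.41 ± 0.14, adjusted p = 0.601). Among cone genes Gnb3, a transducin subunit, read 9.58 and 9.89 and then 10.67 and 10.34 (adjusted p = 0.0969). Rgs11 had the smallest p of the bipolar cell markers and was 1 of 3 with a positive difference (0.52 ± 0.12, adjusted p = 0.222). Set against the tissue label, none of the 24 rod markers lay below the background median in both groups, and their mean was 10.7 and 10.9 on the untreated arrays and 10.7 on each OIR array.

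Of 19 pigment epithelium genes none passed the limma threshold, 2 had a positive difference and 2 were apart and lower, with a median of -0.31 (-0.12 without OIR array 2, -0.15 without untreated array 1). Their mean level was 7.18 and 6.89 on the untreated arrays and 6.91 and 6.46 on the OIR arrays. Named after their values were seen, Rpe65, the isomerase of the visual cycle, read 7.71 and 6.57 and then 7.04 and 5.36, and Rgr, an opsin of pigment epithelium and Müller cells, read 8.94 and 8.82 and then 8.37 and 7.26. The second OIR array was the lowest for both. Of 22 lens genes 1 had a positive difference, with 10 genes below the background median in both groups and a median of -0.14 (-0.22 without OIR array 2, -0.07 without untreated array 2). Ciliary body and iris genes (10) had a median of -0.01 (0.11 without OIR array 2, 0.003 without untreated array 1, -0.02 without untreated array 2, -0.01 without OIR array 1). Only 3 of 10 erythrocyte genes were tested, none past the limma threshold; Alas2, the haem synthesis enzyme of red cells, read 5.91 and 6.04 and then 6.38 and 6.86 (adjusted p = 0.397). The part of neighbouring tissue and blood in the differences above was not tested.

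**Figure D4:**
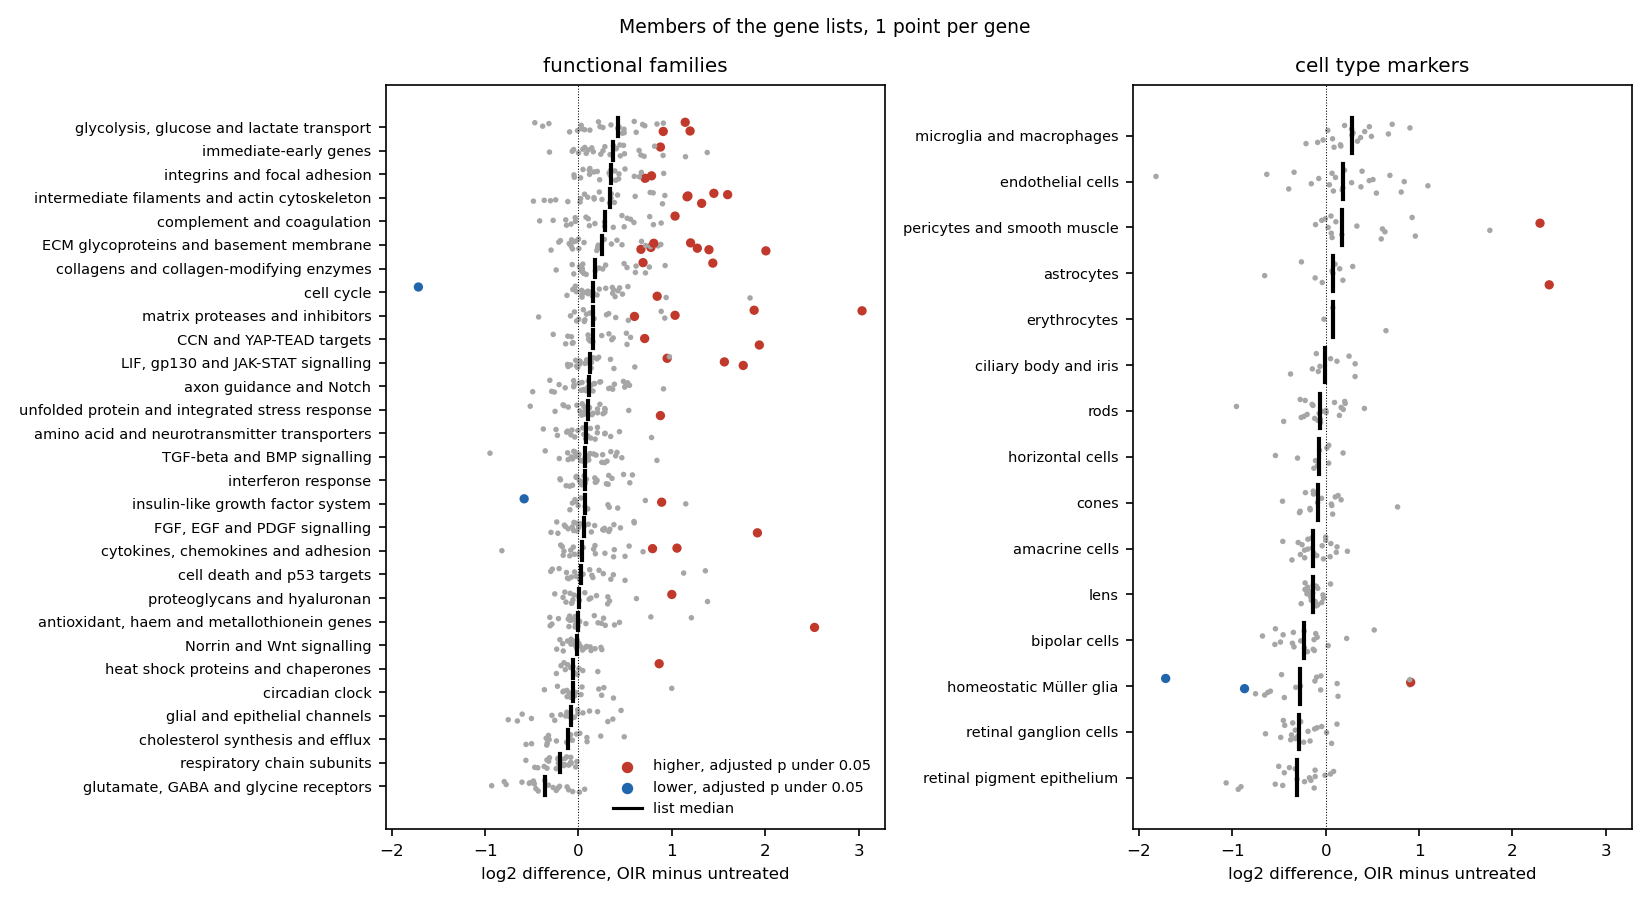
Log2 difference between OIR and untreated retina (horizontal axis) for the members of 29 functional families (left) and 15 cell type lists (right), each list on 1 row of the vertical axis and ordered by its median; each point is 1 gene, coloured where past the threshold (red higher, blue lower), and each black bar is the list's median. The median of the glycolysis list is 0.42 (0.21 without untreated array 1) and that of the glutamate, GABA and glycine receptors -0.36.

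The remaining lists gave no gene past the limma threshold. Of 23 amino acid and neurotransmitter transporters, the neutral amino acid exchanger gene Slc1a4 had the smallest p (0.78 ± 0.14, adjusted p = 0.0737). Over all genes tested 40% had a positive difference and the median was -0.04. Over 18 cholesterol genes 5 had a positive difference, with a median of -0.11 (-0.21 without OIR array 1). Over 18 clock genes 7 did, which is near the share of all genes tested. The median of the clock genes was -0.06 (0.09 without OIR array 2, -0.02 without untreated array 1, -0.15 without OIR array 1). Bhlhe40, a clock repressor and hypoxia target, read 8.03 and 7.50 and then 9.08 and 8.44 (adjusted p = 0.416).

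Levels of some raised genes in the other groups stand on the same scale. Mean log2 levels in untreated day 17, uninjected OIR, PBS-injected OIR and ISOX DUAL-injected OIR retina were 8.22, 10.23, 9.20 and 9.28 for Fn1. They were 6.73, 8.67, 7.02 and 6.98 for Ccn1, and 7.62, 9.22, 8.41 and 8.50 for Msn. For Fgf2 they were 6.88, 8.80, 8.08 and 8.79, so the group given ISOX DUAL was level with uninjected OIR. At day 7 the means were 8.58 for Fn1, 6.49 for Ccn1, 8.20 for Msn and 6.02 for Fgf2. The difference between injected and uninjected OIR was not tested here, and the genes were chosen after their values were seen.

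The counts rest on the spread estimated over all 10 arrays. With the 4 arrays alone no gene passed the limma threshold, with 848 genes at an unadjusted p under 0.05, and with the 6 uninjected arrays 7 did, against 115 genes with 1419 at that unadjusted p. When 1 array was left out, 3 genes passed without untreated array 1, 0 without untreated array 2, 6 without OIR array 1 and 35 without OIR array 2. The genes that passed under the most settings of 23 were Adm (21), Angpt2 and Apln (20 each), and Fn1, Gfap, Mgp and Spc25 (19 each). Genes described above as past the threshold that passed under few of the 23 include Tnfrsf1a (6), Pfkp, Pfkfb3, Lamb1 and Deptor (8 each), and Bmp1 and Tgfbi (9 each).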

How the data were processed

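The files hold 1 log2 value per transcript cluster and array for 10 Affymetrix whole-transcript arrays; the log2 scale was read from the values, as deposited by the authors, and for their background correction, normalization and software nothing is given in the sources used here. Per the labels' protocols, Trizol RNA was broken into fragments and labelled with biotin (WT Terminal Labeling Kit). No further normalization was applied. Of 65956 transcript clusters, 30604 carry 1 gene symbol in the platform annotation; symbols were updated through RefSeq (GRCm38.p6), and the brightest cluster stood for a gene (30063 genes). A gene was tested if it passed the 30th percentile on at least 2 arrays (23255 genes).

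Differences were fitted with limma 3.58.1 (R 4.3.3, lmFit and eBayes) over the 10 arrays and 5 groups, with 5 residual and 2.76 prior degrees of freedom, and p-values were adjusted over the 23255 genes by the Benjamini-Hochberg method with a threshold of 0.05. A difference had a standard error of 0.13 log2 and a 95% interval of 0.31 to either side, as medians over genes, and precision is limited by the number of arrays. The fit was tested on simulated data with independent normal errors on each array. In the measured data the differences between arrays correlated between groups, so that test cannot tell if the calls hold. Members and lists were chosen with earlier results of these data known, and so was the rule of giving no fold near the background. Named were all lowered genes, the 25 raised genes of largest difference outside the hypoxia, tip cell and reactive glia lists (clone and predicted names left out), the members of each described list past the threshold or else up to 3 of smallest p, and up to 3 genes per class; other names are marked as chosen after their values were seen. No list was tested as a set; counts and medians describe it.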

Additional observations from a re-analysis of the deposited data

Results flagged for a closer look

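Transcript clusters without a single gene symbol, 35352 in number, lie outside the comparison of named genes. Of these, 13 passed the threshold and were higher in uninjected OIR than in untreated retina. They were found in a limma fit over all 65956 clusters, in which 51 passed an adjusted p of 0.05. The other 38 were among the 30604 clusters with 1 symbol, so the share past the threshold was smaller for clusters without a single symbol. Of the 13, 12 carry no symbol and 1 carries several, and none of the clusters of these kinds fell. The largest, TC0500003073.mm.1, read 6.15 and 5.99 on the untreated arrays and 9.34 and 9.89 on the OIR arrays, a log2 difference of 3.54 ± 0.25. The next were TC1000001477.mm.1 with a log2 difference of 2.36 and TC1200000133.mm.1 with 2.33. No gene name is given to them.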

How the results depend on the processing

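The 115 genes kept their direction in each of 23 settings of the fit that still tested them. As the groups of all 115 did not overlap, leaving out 1 array could not turn a direction, so this is no sign of stability. The number past the limma threshold was 0 with the 4 arrays of both groups alone (848 at an unadjusted p under 0.05), 7 with the 6 uninjected arrays and 12 with array weights, all of them among the 115. It was 108 to 115 with quantile normalization, median centring, robust variances, no filter, a filter at the background median or the mean over clusters, 143 with a variance trend and 163 with protein-coding genes alone. Leaving out 1 array gave 0 to 84 genes: 0 without untreated array 2 (2787 at an unadjusted p under 0.05), 3 without untreated array 1 (2 shared), 6 without OIR array 1, 35 without OIR array 2 (31 shared), and 23, 54 and 84 when the array left out was either one given ISOX DUAL, PBS or from day 7. A lone array was assumed to vary like the other groups. The array number as a replicate block gave 134 genes over all arrays (103 shared) and 210 over the 6 uninjected arrays (108 shared). Genes named as short of the threshold that passed with the block over those 6 arrays include Kcnj10, Mfsd2a, Slco1a4, Slco1c1, Gabrb1, Eng, Cd93, Adgrl4, Rgs5, Plxnd1, Igfbp3, Lamc1, Hspg2, Col4a2, Plod2, P4ha2, Slc16a3, Slc1a4 and Bhlhe40; Adgrl4, Bhlhe40, Cd93, Eng, Plod2, Rgs5 and Slco1a4 also passed with it over all 10. The first-to-second array differences of genes correlated at 0.587 between both groups, 0.809 between OIR and day 7, 0.583 between untreated day 17 and day 7, 0.399 between both injected groups and -0.0567 to -0.406 between uninjected and injected groups; no label ties the numbers to animals or batches. The 375 genes called apart became 89 at 2-fold, 456 to 1357 without 1 of the 4 arrays (higher genes 35% without OIR array 1 and 55.6% without untreated array 2, against 78.1%), and 337 to 385 otherwise. The cause of these shifts was not tested. Genes near the background and differences under the half-width of 0.31 log2 are the least certain.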

Other observations

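Raised genes that fit no family above cover several functions; all were picked after their values were seen, and adjusted p-values are from the limma fit over 23255 genes. Prtg, protogenin, an adhesion protein of embryonic tissue, read 6.74 and 6.53 in untreated retina and 7.46 and 7.63 in OIR retina (1.88-fold, adjusted p = 0.0261). Pdzrn3, a ubiquitin ligase of vessels and synapses, read 6.22 and 6.51 and then 7.26 and 7.42 (1.96-fold, adjusted p = 0.0279). Gng12, a G protein gamma subunit, read 6.89 and 6.85 and then 7.55 and 7.46 (1.55-fold, adjusted p = 0.0304). On both OIR arrays these stood above the untreated arrays. Lrrc32, the surface anchor of latent TGF-beta, read 5.06 and 5.38 and then 6.14 and 6.10 (adjusted p = 0.0318). Tph1, a serotonin synthesis enzyme, read 5.00 and 5.00 and then 5.84 and 5.74 (adjusted p = 0.0322), and Ulbp1, a ligand of the natural killer receptor NKG2D, read 4.28 and 4.05 and then 5.04 and 4.97 (adjusted p = 0.0234). The untreated values of the last 3 lay below the background median, and those of Tph1 and Ulbp1 lay below it on both OIR arrays as well.

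Of 197 olfactory receptor genes that passed the filter on dim values, 169 lay below the background median in both groups, and none passed the limma threshold. A positive difference was found for 39 of them, against 40% of all genes tested, and the median was -0.10, against -0.04.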
